A study of Mus musculus with 4 samples.

Results

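A set of 6 loci of the mouse genome was examined for where cytosine methylation was lost in embryonic stem cells after inducible knockout of Ogt: Erc2, Gabra3, Ccdc162, Sgo2a, Th and Mroh2a. The 6 genes are 6 of 49554 genes that the RefSeq table places on the autosomes and X. They were selected because their methylation was among the values farthest below the controls in these same libraries, so the difference between the groups is described and carries no test. Each gene was extended by 5 kb on both sides and cut into bins of 1 kb, and the methylated and total reads of all CpGs in a bin were pooled per library. A bin was read only where every library held at least 10 reads, and it is called a lower bin where both iKO libraries lay 20 percentage points or more below both controls. Adjacent lower bins form a run.

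Genomic DNA of 4 samples was analysed by whole-genome bisulfite sequencing, 2 Ogt iKO and 2 control. All of them were mouse embryonic stem cells of the Ogt fl/fl genotype, grown on mitomycin C-treated fibroblast feeders with LIF. The iKO samples received 4-hydroxytamoxifen (4-OHT) for 6 days, and the controls were kept without it. Viable cells were sorted away from feeders with antibodies to CD90.2 and CD326, and of the treated cells the YFP+ fraction was taken. The labels assign CD90.2 to the stem cells and CD326 to the feeders, whereas CD326 (EpCAM) is commonly used to mark embryonic stem cells and CD90 fibroblasts, and this was not resolved here. The agent, the YFP gate and the loss of Ogt therefore cannot be told apart. The labels do not say whether replicates came from separate cultures or clones, so a spread between replicates may be technical.

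Methylation at CpGs is copied to new DNA strands by DNMT1 and laid down anew by DNMT3 enzymes, and TET enzymes oxidise it. OGT, the enzyme that Ogt encodes, attaches O-GlcNAc to nuclear and cytosolic proteins and binds TET proteins. CpG-rich stretches at gene starts are usually unmethylated in stem cells, while most CpGs elsewhere are methylated. Bisulfite sequencing reads 5-methylcytosine and 5-hydroxymethylcytosine alike, and a middle level in bulk DNA does not tell whether some cells lost methylation wholly or all cells lost part of it.

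The sequences before 4 start sites show what kind of DNA the described loci hold. Each is the 250 bases upstream of a RefSeq start (GRCm38.p6, the assembly of mm10), written 5′ to 3′ on the strand of the gene, with every CpG in capitals. The Th sequence is chr7:142899996-142900245 (minus strand), of which all but the 5 bases next to the start lie within a lower bin. The upstream Sgo2a sequence is chr1:57985090-57985339 (plus strand), also within a lower bin, and the downstream Sgo2a sequence is chr1:57995724-57995973 (plus strand), before a second start that was unmethylated in all libraries. The Erc2 sequence is chr14:27622157-27622406 (plus strand) and is shown because the lower bins of Erc2 do not lie at its start.
Th: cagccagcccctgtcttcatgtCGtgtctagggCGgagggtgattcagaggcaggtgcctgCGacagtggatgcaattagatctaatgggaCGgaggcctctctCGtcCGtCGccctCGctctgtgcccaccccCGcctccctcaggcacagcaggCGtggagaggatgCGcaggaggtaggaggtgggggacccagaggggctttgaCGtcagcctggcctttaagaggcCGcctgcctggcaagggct
Sgo2a upstream start: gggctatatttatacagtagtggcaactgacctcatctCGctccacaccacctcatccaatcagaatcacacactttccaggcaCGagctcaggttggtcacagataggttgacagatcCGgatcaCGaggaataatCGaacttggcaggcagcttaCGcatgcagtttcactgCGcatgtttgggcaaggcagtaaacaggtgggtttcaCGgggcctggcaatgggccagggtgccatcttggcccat
Sgo2a downstream start: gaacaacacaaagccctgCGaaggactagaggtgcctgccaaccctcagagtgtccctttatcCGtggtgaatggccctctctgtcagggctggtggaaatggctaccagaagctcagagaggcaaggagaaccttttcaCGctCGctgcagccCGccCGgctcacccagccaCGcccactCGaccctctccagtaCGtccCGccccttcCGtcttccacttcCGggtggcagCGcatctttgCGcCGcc
Erc2: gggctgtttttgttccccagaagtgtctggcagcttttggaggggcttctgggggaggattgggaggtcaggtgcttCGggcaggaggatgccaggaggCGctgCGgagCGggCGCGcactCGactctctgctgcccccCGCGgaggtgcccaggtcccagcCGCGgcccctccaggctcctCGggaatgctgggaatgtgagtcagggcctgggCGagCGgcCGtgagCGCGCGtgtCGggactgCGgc

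The 4 sequences hold different numbers of CpGs and were methylated to different degrees. Th has 13 CpGs in these 250 bases, the upstream Sgo2a start 8, the downstream Sgo2a start 15 and Erc2 20. The corresponding 250 bases of Gabra3 (2 starts) and Mroh2a (1 start) hold 0 CpGs. From 1000 bp before to 500 bp after the Mroh2a start, 8 CpGs were at 69.6% and 68.4% in iKO and 71.3% and 72.8% in controls, on 114 to 174 reads. The same windows at the Gabra3 starts held 3 and 4 CpGs and only 3 to 7 reads per library. Ccdc162 has no entry in the promoter table.

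Depth was low and even across the libraries. The 4 libraries held 64273609 to 79929994 reads over CpGs, or 3.35 to 4.04 reads per listed CpG, the iKO libraries being the deeper ones. The median 1 kb bin was methylated to 72.5% and 70.0% in iKO replicates 1 and 2 and to 77.3% and 81.8% in control replicates 1 and 2, and the median difference between the groups' bins was -7.81 points (iKO minus control). Replicates of 1 group lay 20 points or more apart in 15.3% of bins (iKO) and 14.8% (control). Over the Ogt gene itself (441 CpGs) depth was 2.51 and 2.15 reads per CpG in iKO and 2.18 and 1.90 in controls. The deleted part is not named in the labels, so this does not check the knockout. Depth on X was 0.505 to 0.512 of that on the autosomes in all 4 libraries, as for a single X, whereas the labels give a pair of floxed alleles (fl/fl) of this X-linked gene, and the conflict was not resolved. The starts of 5 stem cell genes were at 0% to 23.4% methylation, with Pou5f1 at 0%, 0%, 3.45% and 2.20%. The starts of 4 fibroblast genes were as low (0% to 11.4%), so methylation at these starts does not separate the stem cells from feeders.

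Lower bins were a small share of the 6 genes. Of their 1408 bins, 949 could be read and 459 could not, and 27 were lower (2.85%). Over all 1741176 readable bins of the autosomes and X, 39427 were lower, a share of 2.26%. In the opposite direction 0 bins of the 6 genes and 0.0408% of all bins were higher in iKO by the same amount. Both iKO libraries lay below both controls by any amount in 42.3% of the bins of the 6 genes and in 40.5% of all bins. Since the genes were selected on this contrast, nothing is read from the difference between these shares.

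The 27 lower bins formed 25 runs in 5 of the 6 genes. Erc2 held 16 lower bins among 657, Sgo2a 5 among 43, Ccdc162 3 among 171, Gabra3 2 among 21 and Th 1 among 11. Mroh2a held 0 among 46. Only the longest runs of Erc2 and Sgo2a reached 2 kb, and the other 23 runs were single bins. Lengths are counted in whole bins. From first to last CpG the Sgo2a run spanned 903 bp and the Erc2 run 1258 bp. The single bins of Gabra3 and Ccdc162 spanned 981 and 952 bp, so the 2 kb of Sgo2a is not a longer stretch of CpGs than theirs. Genome-wide, 38239 runs were found, of which 2.93% were 2 kb or longer, 57 were 3 kb long and 5 were 4 kb long.

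**Figure D1:**
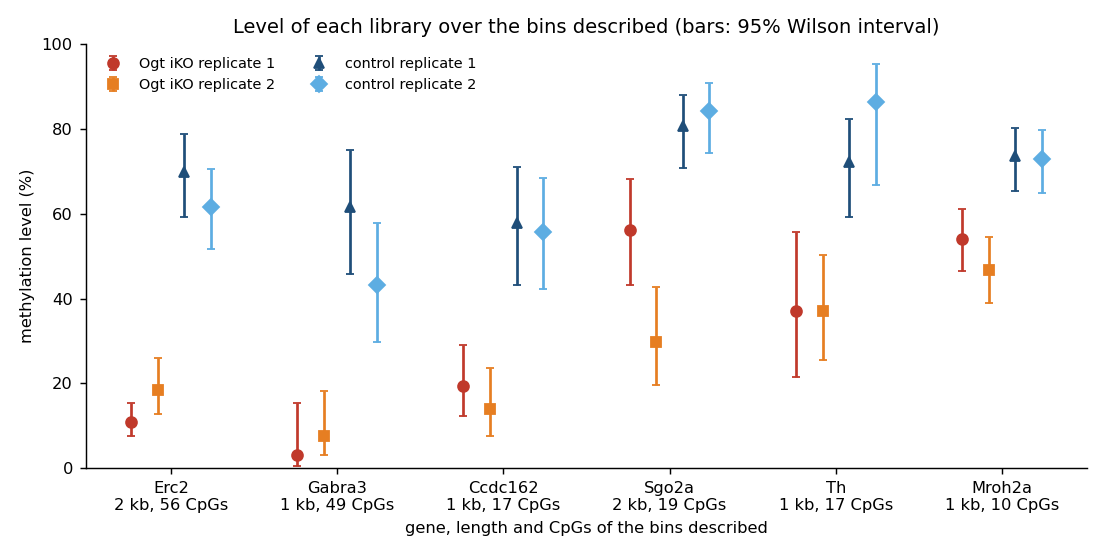
Methylation level (%, y axis) of each library over the longest run of 5 genes and, for Mroh2a, over its widest-gap bin (x axis, with length and number of CpGs). Points are libraries and bars are 95% Wilson intervals, which cover counting error only. The bins were chosen with both iKO libraries below both controls. The iKO levels reach 3.03% at Gabra3 and 10.9% at Erc2.

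Erc2 encodes a scaffold protein of the presynaptic active zone, where synaptic vesicles are released. Its longest run, chr14:28188001-28190000, lay inside the gene, 565594 bp from the start. The run was methylated to 10.9% and 18.5% in iKO replicates 1 and 2 and to 69.9% and 61.6% in control replicates 1 and 2. The run was chosen with both iKO libraries below both controls, so the groups could not overlap here. The same holds for the bins described for the other genes. Both replicates of a group lay close together. Averaged over the 2 libraries of a group (± SD, n = 2), iKO was at 14.7% ± 5.40 and control at 65.7% ± 5.84, which is -51.0 points. These levels rest on 248, 135, 83 and 99 reads over CpGs. Neighbouring CpGs share DNA fragments, so reads over CpGs outnumber molecules, and no CpG of the run had more than 11 reads in any library.

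The Erc2 run was a dense group of listed CpGs in a stretch with few, called an island here. A CpG is listed where at least 1 library has a row for it. The genome sequence there was not read, so CpGs without a row are not counted. The run held 56 CpGs, 28 per kb, against 7.27 per kb over the whole gene with its flanks. Of the 56, 54 lay between 28188501 and 28189500. Over this 1000 bp the levels were 9.21% and 13.6% in iKO and 69.7% and 57.5% in controls. Before it, the next listed CpG was 3301 bp away, so the border on that side falls in a stretch with no listed CpG to measure. The nearest readable bin before the run was 6 kb off.

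The border after the Erc2 island was narrow. In steps of 250 bp, iKO replicate 1 was at 14.4%, 6.48% and 3.85% over the 3 steps from 28188751 to 28189500, each with 10 or more CpGs. Over the same steps iKO replicate 2 was at 7.84%, 18.4% and 28.6%. The controls stayed between 54.8% and 71.4% there. The step from 28189501 held 1 CpG and was at 0%, 66.7%, 50% and 50% in iKO 1, iKO 2, control 1 and control 2, on 4, 3, 4 and 2 reads. The last step of the run, 28189751 to 28190000, also held 1 CpG. In the same order it was at 100%, 85.7%, 100% and 100%, on 3 to 10 reads. The next 1 kb bin was at 75.7% and 86.7% in iKO and 86.7% and 93.8% in controls. High levels in every library were thus seen again within 500 bp of the last CpG-dense step, inside the run at 1 CpG only.

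Within the Erc2 run, 21 CpGs had at least 2 reads in every library. Both iKO libraries were below both controls at 16 of them, and the iKO mean was lower at 20. The run was chosen on this contrast, so these counts were favoured by that choice. Neighbouring CpGs share fragments and are not replicates. Both iKO libraries had 0 methylated reads at 9 of these CpGs, while both controls had 0 at 1.

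The start of Erc2 was unmethylated in all libraries. Its printed 250 bases were at 1.54% and 0% in iKO and 7.14% and 1.96% in controls, on 23 to 65 reads. The 1 kb bin that covers the Erc2 start held 82 CpGs and was at 0.881%, 0%, 1.23% and 2.14%. The iKO and control levels at the start lie too close to 0 for the 20-point rule to apply.

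The other 14 lower bins of Erc2 lay apart from each other and held few CpGs, between 4 and 12 each. Their differences ran from -24.4 to -48.8 points, and their iKO levels from 21.4% to 65.6%. The widest of these was chr14:28262001-28263000, with 7 CpGs, at 41.2% and 21.4% in iKO and 78.9% and 81.2% in controls on 16 to 28 reads. Without its lower bins, Erc2 was at 71.7% ± 2.16 in iKO against 78.9% ± 2.50 in controls (SD, n = 2 per group), -7.20 points, close to the shift of the median bin. Leaving out the lower bins shrinks the difference by construction, here and at the other genes. With them the Erc2 region differed by -7.93 points.

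**Figure D2:**
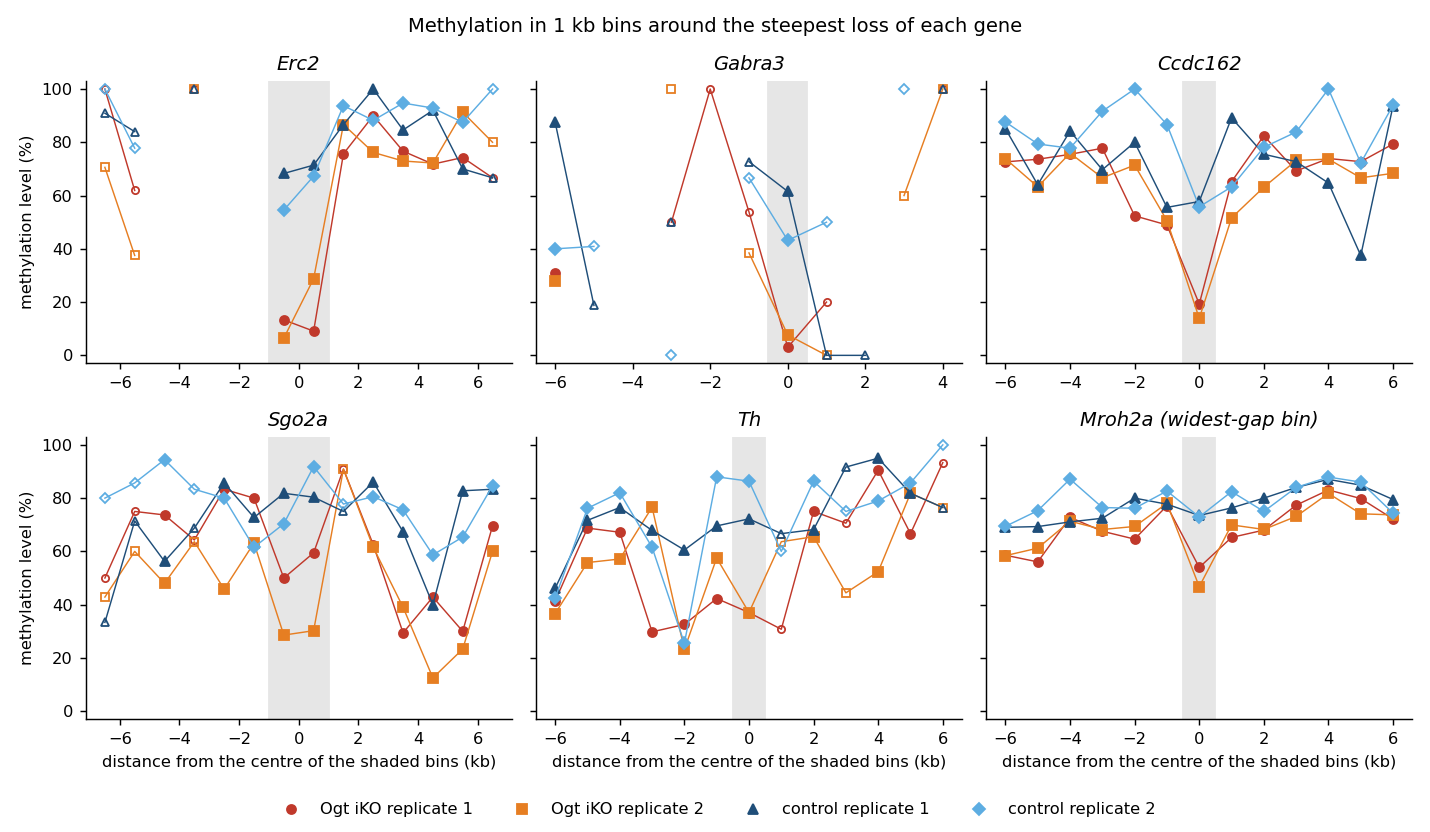
Methylation level (%, y axis) per library in 1 kb bins within 6 kb of the shaded bins (x axis, distance in kb from their centre). Filled symbols are bins with at least 10 reads in every library, open symbols other bins. At Erc2 the iKO lines return from 9.09% and 28.8% to 75.7% and 86.7% in 1 bin, while most bins around the Gabra3 bin are open or empty.

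Gabra3 encodes the alpha-3 subunit of the GABA-A receptor, a chloride channel that inhibits neurons. Its widest lower bin, chrX:72578001-72579000, lay inside the gene, 77807 bp from the nearest start, and held 49 CpGs. The bin was at 3.03% and 7.69% in iKO and at 61.5% and 43.2% in controls. The controls lay 18.4 points apart. Group averages (± SD, n = 2) came to 5.36% ± 3.30 for iKO against 52.4% ± 13.0 for control, which is -47.0 points.

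The Gabra3 bin was the most CpG-dense of the lower bins and the least deeply read for its CpGs. Its 33, 52, 39 and 44 reads were 0.673 to 1.06 reads per CpG, and only 24, 27, 36 and 35 of the 49 CpGs had any read. No Gabra3 CpG in the bin had 2 reads in every library. The lower depth of X given above applies to Gabra3. The libraries did not cover the same CpGs: between 72578501 and 72578750 the iKO libraries had 0 reads. There control replicate 1 was at 50% on 8 reads and control replicate 2 at 10% on 10 reads. In the 250 bp before this stretch, control replicate 2 was at 12.5% on 16 reads, beside 0% and 7.69% in iKO, and control replicate 1 had 1 read. Control replicate 2 was thus low in the middle of the bin, part of which has no iKO level to set it against. At both ends it was above the iKO levels, at 75% and 92.9% on 4 and 14 reads. Over the 13 CpGs with a read in every library the difference was -68.9 points.

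The borders at Gabra3 could not be placed. The nearest readable bins were 5 kb before and 14 kb after, and only 21 of 235 bins of Gabra3 could be read. The bin before was at 30.8%, 28%, 87.5% and 40% in iKO 1, iKO 2, control 1 and control 2. The second lower bin, chrX:72513001-72514000, had 11 CpGs and was at 56.8% and 50.0% in iKO and 90.9% and 81.2% in controls. The microRNA genes Mir767 and Mir105 lie within Gabra3, in bins that could not be read. Without the lower bins the Gabra3 region differed by -7.90 points, and with them by -8.95 points.

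Ccdc162, named for a coiled-coil domain, held its steepest loss at the end of the gene with the higher coordinate. The bin chr10:41716001-41717000 spans that end at 41716520, and the table gives no strand, so it is not known here as start or end of transcription. It was at 19.3% and 13.9% in iKO and 57.8% and 55.8% in controls, on 45 to 83 reads and 17 CpGs. The iKO replicates lay 5.39 points apart. Group averages (± SD, n = 2) came to 16.6% ± 3.81 for iKO against 56.8% ± 1.42 for control, which is -40.2 points.

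The loss at Ccdc162 was bordered on both sides by higher levels in iKO. The bin before it, with 28 CpGs, was at 49.0% and 50.6% in iKO, and its controls disagreed, at 55.6% and 86.7%. The bin after it was at 65.2% and 51.6% in iKO and at 89.2% and 63.3% in controls. Inside the Ccdc162 bin, the 250 bp from 41716501 to 41716750 were low in every library, at 0%, 0%, 18.2% and 16.7%, on 5, 15, 11 and 6 reads over 5 CpGs. In the 250 bp before it, from 41716251, levels were 15.0% and 18.8% in iKO against 54.5% and 55.6% in controls. In the first 250 bp of the Ccdc162 bin they were 23.3% and 11.1% against 66.7% and 70.4%. In the last 250 bp, from 41716751, they were 20% and 28.6% in iKO against 100% and 40% in controls, on 8 to 15 reads and 2 CpGs. On these few reads the low point was shared by the groups, with higher control levels on both sides of it.

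Ccdc162 held 2 further lower bins, both inside the gene. The bin at 41573001, which also overlaps the long noncoding RNA gene 5730435O14Rik, was at 36.7% and 33.3% in iKO and 77.8% and 67.7% in controls. The bin at 41612001 was at 47.8% and 30.9% in iKO and 70.4% and 72.6% in controls. The bins just before both of these missed the rule by less than 1 point, with gaps of 19.6 and 19.9 points. Ccdc162 had 10.1 CpGs per kb, and without its lower bins it differed by -9.60 points, and with them by -10.3 points.

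**Figure D3:**
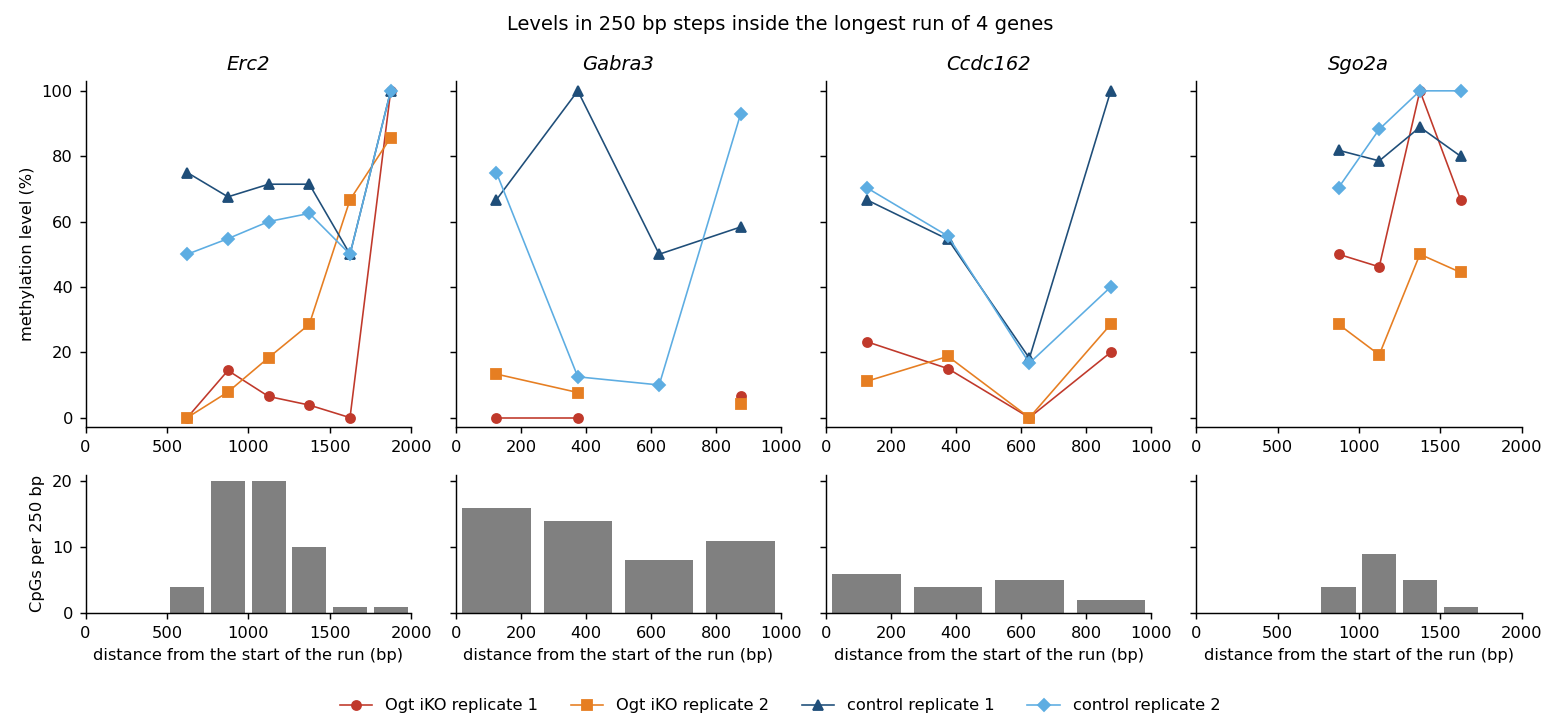
Methylation level (%, upper row) and number of CpGs (lower row) in steps of 250 bp along the longest run of Erc2, Gabra3, Ccdc162 and Sgo2a (x axis, bp from the start of the run). Each line is 1 library, and steps without reads are left blank. At Erc2 the CpGs crowd in the middle of the run, and the last step is at 85.7% to 100% in every library.

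Sgo2a encodes a shugoshin, a protein that shields centromeric cohesin during meiosis. Its longest run, chr1:57984001-57986000, spans the first RefSeq start of the gene at 57985340 and held 19 CpGs. The run was at 56.1% and 29.8% in iKO and 80.8% and 84.2% in controls, on 57 to 78 reads. The iKO replicates lay 26.3 points apart, the widest spread of the described runs. Group averages (± SD, n = 2) came to 43.0% ± 18.6 for iKO against 82.5% ± 2.43 for control, which is -39.5 points. Both bins of the run were only just past the rule, with gaps of 20.4 and 20.9 points. The difference was -26.3 points without iKO replicate 2 and -52.7 points without iKO replicate 1. The 250 bp step that holds the start, 57985251 to 57985500, had 5 CpGs and 8 to 12 reads. It was at 100% and 50% in iKO and 88.9% and 100% in controls, where the groups overlapped. The step before it, with 9 CpGs, was at 46.2% and 19.2% in iKO and 78.6% and 88.2% in controls. The groups also overlapped in the bin before the run, at 80% and 63.2% in iKO and 72.7% and 61.5% in controls.

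The printed bases before the first Sgo2a start were at 50.0% and 28.6% in iKO and 71.4% and 84.2% in controls. They rest on 6, 28, 35 and 19 reads. The second start of Sgo2a behaved otherwise. Its printed bases had 0 methylated reads in every library, of 38, 28, 33 and 10 reads. The upper Wilson limits were 9.18%, 12.1%, 10.4% and 27.8%.

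In the printed bases before the second start of Sgo2a, and in the bin right after it, the controls lie too close to 0 for the 20-point rule to apply. That bin, at 57996001 and with 49 CpGs, was at 0%, 0%, 0% and 0.935%. The bin that holds the start and its printed bases, at 57995001, was at 13.6% and 24.1% in iKO and 34.8% and 65.7% in controls, and missed the rule. The bin at 57999001 met it, at 2.33% and 14.7% in iKO and 36.4% and 36.2% in controls.

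Between both starts of Sgo2a, 2 more bins met the rule. The bin at 57988001 was at 29.4% and 39.0% in iKO and 67.3% and 75.6% in controls. The bin at 57990001 was at 30% and 23.3% in iKO and 82.8% and 65.4% in controls, a difference of -47.4 points on 7 CpGs. The bin between them, at 57989001, did not, with iKO replicate 1 at 42.9% and control replicate 1 at 40%. The bin at 57986001, right after the first start, was at 90.9% in both iKO libraries and 75% and 77.8% in controls, but its 22, 11, 12 and 9 reads fall short of the read minimum. Lower bins at Sgo2a were thus separated by a readable bin that missed the rule. Without its lower bins Sgo2a was at 51.7% ± 3.83 in iKO against 62.4% ± 3.72 in controls (SD, n = 2 per group), -10.6 points. With them the difference was -13.5 points.

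Th encodes tyrosine hydroxylase, the rate-limiting enzyme of catecholamine synthesis. Its lower bin, chr7:142900001-142901000, begins 6 bp upstream of the start and held 17 CpGs, of which 13 lie in the printed 250 bases. The bin was at 37.0% in both iKO libraries and at 72.2% and 86.4% in controls, on 27, 54, 54 and 22 reads. Group averages (± SD, n = 2) came to 37.0% ± 0 for iKO against 79.3% ± 10 for control, which is -42.3 points. The iKO replicates had equal levels, on 27 and 54 reads.

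Over the printed bases of Th the levels were 34.8% and 35.1% in iKO and 65.8% and 85% in controls. Among them is the cAMP response element TGACGTCA, the site that CREB proteins bind, whose first base is at -45 from the start. Its CpG was methylated in 0 of 3 and 0 of 4 reads in iKO and in 1 of 2 and 3 of 3 reads in controls, too few for more than a description. The motif reads alike on both strands and occurs in 1.79% of 32851 RefSeq promoters of 300 bases (588 promoters). No start of the other genes with an entry had it. The E-box CACGTG, also searched, was in none of them and in 7.15% of promoters.

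Into the gene from the lower bin of Th, the gap between the groups narrowed, but the iKO levels did not rise steadily. The bin that covers the start and the first bases of Th, 142899001 to 142900000, was at 42.3% and 57.5% in iKO and 69.6% and 88.0% in controls, with the groups apart by 12.1 points. The next bin into the gene, at 142898001, was low in every library except 1, at 32.6%, 23.2%, 60.5% and 25.5%. Further in, the bin at 142897001 was at 29.8% and 76.6% in iKO and 67.9% and 61.5% in controls. On the upstream side the first readable bin, at 142902001, was at 75.0% and 65.5% in iKO and 68.2% and 86.4% in controls, where the groups overlapped. Without the lower bin the Th region differed by -11.1 points, and with it by -13.2 points.

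Mroh2a, of the maestro heat-like repeat family, was the only one of the 6 with no lower bin. Its whole region was at 66.6% ± 1.37 in iKO against 73.6% ± 1.78 in controls (SD, n = 2 per group). This difference of -6.97 points is smaller than the -7.81 points of the median bin, so the region does not stand out. A difference as large as that of its widest-gap bin was found in 125384 readable bins. Its widest gap, 18.96 points, was at chr1:88262001-88263000, which spans the end of the gene at 88262289 and overlaps Hjurp, whose product loads the centromeric histone CENP-A. The bin was at 54.0% and 46.8% in iKO and 73.5% and 72.9% in controls. Group averages (± SD, n = 2) came to 50.4% ± 5.11 for iKO against 73.2% ± 0.391 for control, which is -22.8 points. It had the most reads per CpG of the described bins, with 132 to 176 reads over 10 CpGs. Without CpGs over 5 times the median depth in any library, 3 CpGs and 23 to 35 reads remained, with a difference of -20.9 points.

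The bins on either side of the Mroh2a bin were higher in iKO than the bin itself. The bin before was at 77.1% and 78.0% in iKO and 77.7% and 82.7% in controls, and the bin after at 65.2% and 69.9% in iKO and 76.3% and 82.4% in controls. All 10 CpGs of the Mroh2a bin had at least 2 reads in every library, and the iKO mean was lower at all 10. Both iKO libraries were below both controls at 7. The bin was chosen for its gap, so these counts too were favoured by that choice. The Mroh2a region was read 12.3 to 14.5 times per CpG, and its bin had 3.88 to 4.43 times the depth of chromosome 1 in all 4 libraries. The part of this depth in the methylation difference was not tested.

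The 6 loci differ in how far they stand out among all bins. Counting every readable 1 kb bin, 333 had a gap at least as wide as the wider Erc2 bin (41.2 points) and 996 as the Ccdc162 bin. The numbers for Gabra3 and Th were 1270 and 1358. For both bins of the longest Sgo2a run they were 32582 or more, and for Mroh2a 47747. The Sgo2a bin at 57990001, outside that run, was not counted in this way. Its gap of 35.4 points lay between those of Gabra3 (35.5) and Th (35.2). Among the 121583 bins with at least 20 CpGs, 35 had a gap as wide as that of Erc2 and 88 as that of Gabra3. On this measure the Erc2 island is the steepest of the 6, and bins elsewhere reach the same gap. The values just past the rule in the 6 genes were gaps of 20.3 to 20.6 points, and those just short of it 19.6 to 19.9 points.

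Pooled over the 6 genes, the median CpG number of lower bins was that of other bins. Lower bins of the 6 genes held a median of 8 CpGs and their other readable bins also 8, and the same median of 8 was found in all readable and in all lower bins of the genome. Erc2 held most of the pooled bins. By gene, the medians of lower and other readable bins were 7.5 and 8 in Erc2 (16 lower bins) and 8 and 8 in Sgo2a (5). They were 14 and 10 in Ccdc162 (3 lower bins), 30 and 9 in Gabra3 (2) and 17 and 11.5 in Th (1). Of the 27 lower bins, 3 held at least 20 CpGs, namely both bins of the Erc2 run and 1 of Gabra3. They were among the 27 readable bins of that density in the 6 genes, of which 20 had a control mean of at least 40%. Genome-wide, 3.02% of bins with at least 20 CpGs and a control mean of at least 40% were lower. By CpG number, the share of all bins that were lower was 3.10% at 1 to 4 CpGs, 2.00% at 10 to 14 and 1.07% at 30 or more. Among bins with a control mean of at least 40% the share was 3.12% at 1 to 4 CpGs, then 2.28%, 2.05%, 2.34%, 2.91% and 3.78% in the classes from 5 to 9 up to 30 or more CpGs, higher in the densest classes than in the middle ones.

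**Figure D4:**
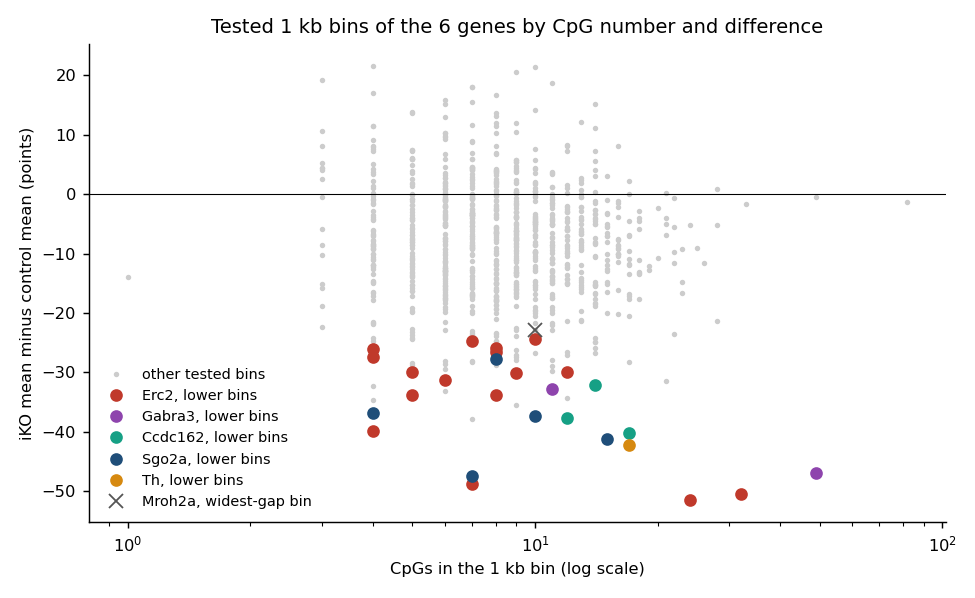
Difference between the iKO and control means (percentage points, y axis) of the 949 readable 1 kb bins of the 6 genes against the number of CpGs in the bin (x axis, log scale). Coloured points are lower bins, grey points other bins, and the cross is the widest-gap bin of Mroh2a. Most lower bins hold 4 to 17 CpGs, and the 3 with 24, 32 and 49 CpGs lie near -50 points. A bin of Erc2 and a bin of Sgo2a, with 7 CpGs each, lie about as low, at -48.8 and -47.4 points.

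Relative read depth was not part of the contrast used to choose the genes, though bins needed at least 10 reads in every library. At some loci the libraries of the groups lay apart in depth. The test given below cannot decide whether this exceeds the spread between libraries. At Erc2, depth relative to chromosome 14 was 1.13 and 0.692 in iKO and 0.446 and 0.568 in controls. At Ccdc162 it was 1.17 and 1.14 against 0.742 and 0.916, also higher in iKO. At Sgo2a it was lower in iKO, at 0.755 and 0.852 against 1.21 and 1.26. The groups overlapped at Gabra3 (0.335 and 0.594 against 0.468 and 0.563) and at Th (0.424 and 0.955 against 0.987 and 0.427). At Mroh2a it was 4.43 and 4.37 against 3.88 and 4.19. A two-sided exact permutation test gave p = 0.33 where the groups were apart, the smallest value that 2 against 2 libraries allow, 0.667 at Th and 1 at Gabra3. Adjusted over the 6 genes by the Benjamini-Hochberg method, the values were 0.5, 0.8 and 1. Its part in the methylation differences was not tested.

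Genes with related functions were read in 5 lists: presynaptic active zone, GABA-A receptor subunits, catecholamine genes, cohesin protection and the maestro heat-like repeat family. Outside the 6 genes, 0 of their 46 other genes held a run of 2 kb, a length that 2.93% of runs reach genome-wide, and nothing is read from this count. In the 7 other active zone genes 21 of 1339 bins were lower (1.57%), and in the 15 other receptor subunits 36 of 1430 bins (2.52%). The shares were 2.08% in the 8 other catecholamine genes, 2.14% in the 7 other cohesin genes and 2.59% in the 9 other maestro genes, around the 2.26% of all bins.

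The 5 other protein-coding genes with the longest runs were Serinc3, Tgif1, Spats1, Tbc1d2 and Arid5b, each with a run of 4 kb in the gene or its 5 kb flanks. Serinc3 had 58 CpGs in its run and was at 18.1% and 18.8% in iKO and 62.9% and 50.2% in controls, a difference of -38.1 points over 4 libraries. The differences were -36.4 points for Tgif1, -35.4 for Spats1, -34.7 for Tbc1d2 and -27.3 for Arid5b. These runs were longer than that of Erc2, and their differences were smaller than its -51.0 points.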

How the data were processed

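The deposited tables hold 1 library each, with 1 row per listed CpG of mm10, from 19181452 to 19789638 rows per library. Per the file headers, the authors' columns are read counts (methylated, and all C or T reads), an expected count (a depth corrected for C/T variants from the G reads on the other strand, used here only as an alternative depth) and the methylation level as a fraction, which was not used. Reads were aligned with BSMAP and handled with Picard, per the submitters' processing notes. Versions, read filters and the treatment of duplicates are not given in the sources used here. Tables were matched to samples by the genotype and replicate in their names, and 0 columns of other samples were left over.

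CpGs of the autosomes and X were joined in Python 3.11.15 (NumPy 2.4.6, pandas 2.3.3, PyArrow 21.0.0). Reads were pooled in 1 kb bins counted from the chromosome's first base. Levels are methylated over total reads, with 95% Wilson intervals (SciPy 1.17.1) that cover counting error only. Gene borders are those of RefSeq on GRCm38.p6, given without exons or introns, and 99.3% of the 407620 CGs in its promoter sequences were listed CpGs.

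The 6 genes, the gene lists and the rules were chosen with earlier results of these data known. Named besides the 6 are genes overlapping or nearest to their runs, list genes with a run of 2 kb or more, and the 5 other protein-coding genes with the longest runs. Of the markers, Dppa4, Col1a1 and Thy1 were not matched. A pair of alternatives for depth was added after the data were examined.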

Additional observations from a re-analysis of the deposited data

How the results depend on the processing

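Each level difference was recomputed in 11 ways. Leaving out 1 library or using the replicate block cannot, by construction, turn these differences or move them past the spread between replicates, since the bins were chosen with both iKO libraries below both controls, so these say nothing about stability. Under the other 6 settings no difference changed sign, and 7 values moved by more than the replicate spread. They were Th at -34.4 points (unweighted mean of CpG levels), Gabra3 at -68.9 and Ccdc162 at -44.2 (CpGs with a read in every library). The other 4 moved when each library's median bin level was subtracted, to -42.7 points for Erc2, -31.9 for Ccdc162, -34.0 for Th and -14.5 for Mroh2a. Subtraction shifts every gene by the same number of points and could not turn differences this large. Gabra3 (-38.7) and Sgo2a (-31.2) shifted alike, and only their wider replicate spread keeps them from counting as moved. The share of lower bins, over all bins and in the 6 genes, was 12.8% and 13.8% at 10 points, 5.71% and 6.43% at 15, 0.825% and 1.37% at 25, and 0.273% and 1.05% at 30. It was 1.22% and 1.60% in 2 kb bins, and 0.412% and 1.16% after subtracting the medians. Bins of 500 bp gave 3.39% and 4.69%. Leaving out 1 library gave 5.74% to 11.4% and 6.39% to 13.5%; a rule with fewer libraries is easier to meet.

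Whether replicate numbers pair the libraries was not settled. The correlation of same-numbered deviations over bins was -0.00723, but counting error in shallow bins can hide a shared effect, so this cannot exclude pairing. Applied within same-numbered pairs (replicate block), the rule gave 3.97% of all bins and 4.21% in the 6 genes, and runs of 2 kb at Ccdc162 and Th.

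Run lengths depended on the settings. Erc2 fell to 1 kb in 500 bp bins and in bins moved by 500 bp. Sgo2a was 1 kb at 25 and 30 points, with at least 20 reads, in 500 bp bins and after subtracting the medians, and 2 to 4 kb without 1 library, the 4 kb being without iKO replicate 1. Ccdc162 reached 3 kb at 10 and 15 points and with unweighted means, and 2 kb in 2 kb bins, in moved bins, with CpGs read in every library and after thinning; without 1 library it was 2 to 3 kb. Gabra3 was 2 kb with at least 1 or 5 reads and in 2 kb bins, 0.5 kb in 500 bp bins, and 1 to 2 kb without 1 library. Th was 2 kb at 10 points and in 2 kb bins, and 1 to 2 kb without 1 library. Mroh2a met the rule over 1 kb at 10 and 15 points and with unweighted means, over 0.5 kb in 500 bp bins, and over 0 to 1 kb without 1 library (1 kb without iKO replicate 1).

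The difference in relative depth changed sign without 1 library at Gabra3 (-0.181 to 0.0785, positive without iKO replicate 1) and Th (-0.297 to 0.262, positive without iKO replicate 1 or control replicate 1). At Erc2 it was 0.406, and 0.186 without iKO replicate 1 and 0.626 without iKO replicate 2. At Mroh2a it was 0.365, and 0.213 without control replicate 1, 0.132 relative to the flanking 20 kb and 0.672 relative to bins with at least 20 CpGs. Depth limits the levels, at 0.673 to 1.06 reads per CpG in the Gabra3 bin and 13.2 to 17.6 in the Mroh2a bin: single lower bins rest on 11 to 143 reads per library, and reads on 1 fragment are not independent.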
